A study of Mus musculus with 12 samples.

Results

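The genes described here are 34 collagens and other structural components of the extracellular matrix, chosen by name from the 53379 Ensembl gene identifiers counted in every library. They fell into 8 families by role: 6 fibrillar collagens, 3 fibril-associated collagens, 4 microfibrillar and network collagens, 7 basement membrane genes, 3 genes of fibronectin and elastic fibres, 5 matricellular genes, 2 small leucine-rich proteoglycans, and 4 genes of crosslinking and hydroxylation. All 34 were measured by RNA-seq of perigonadal white adipose tissue, a visceral fat depot beside the gonads, from C57BL/6 mice aged 9 weeks. The 4 groups were mice with an adipose-specific knockout of Cdk7 given CL for 7 days (ko CL), the same knockout given saline for 7 days (ko saline), control littermates with intact Cdk7 given CL for 7 days (wt CL), and control littermates given saline for 7 days (wt saline). CL appears in the labels only under this abbreviation, which in this field stands for a beta-3-adrenergic agonist. Neither the promoter driving the deletion nor the sex of the mice is named in the sources used here. All tissue was taken at zeitgeber time 9, and each library held RNA of 2 mice, 250 ng from each. With 3 libraries, each group rested on 6 mice, so p-values reflect variation among pools and not among single animals.

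Fibrillar collagens form the tension-bearing fibres of connective tissue. Their chains are hydroxylated in the endoplasmic reticulum, wound into triple helices, trimmed after secretion and joined by lysyl oxidases. Fibril-associated collagens and small leucine-rich proteoglycans sit on the fibre surface, collagen VI forms beaded microfilaments between fibres and cells, and elastin is laid on fibrillin microfibrils to give recoil. Basement membranes are sheets of collagen IV, laminin and nidogen that surround every adipocyte and line the capillaries. In fat, the fibrillar matrix is made mainly by fibroblasts and adipocyte progenitors, and it is remodelled when the tissue expands, shrinks or is inflamed. Matricellular proteins such as periostin and tenascin C carry little load and act on cells and on fibre assembly.

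Promoter sequences are shown for Col4a1, Col4a2, Col1a2 and Col3a1, to set side by side a basement membrane pair and a fibrillar pair. Col4a1 and Col4a2 encode the chains of the main basement membrane collagen. Col1a2 and Col3a1 encode fibrillar chains and were highest in ko CL. The sequences are RefSeq windows on GRCm38.p6 of 300 bases, with 250 bases before and 50 after the transcript start, and 23 of the 34 members had such a window. Col4a1 (chr8:11312777-11313076, minus strand) and Col4a2 (chr8:11312555-11312854, plus strand) lie head to head, and their transcript starts overlap by 22 bases. Capitals in their windows mark the 78 bases that both windows cover, which read as reverse complements of each other. In Col1a2 (chr6:4505368-4505667, plus strand) capitals mark the matches to CCAAT and to GGGCGG, and in Col3a1 (chr1:45311288-45311587, plus strand) the match to TATAAA, each searched on both strands.
Col4a1: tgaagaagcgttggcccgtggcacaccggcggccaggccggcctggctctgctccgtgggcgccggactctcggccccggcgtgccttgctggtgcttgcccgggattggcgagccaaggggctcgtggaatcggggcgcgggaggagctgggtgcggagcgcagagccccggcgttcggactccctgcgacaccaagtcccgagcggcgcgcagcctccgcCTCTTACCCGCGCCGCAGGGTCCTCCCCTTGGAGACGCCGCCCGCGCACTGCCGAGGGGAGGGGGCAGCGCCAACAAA
Col4a2: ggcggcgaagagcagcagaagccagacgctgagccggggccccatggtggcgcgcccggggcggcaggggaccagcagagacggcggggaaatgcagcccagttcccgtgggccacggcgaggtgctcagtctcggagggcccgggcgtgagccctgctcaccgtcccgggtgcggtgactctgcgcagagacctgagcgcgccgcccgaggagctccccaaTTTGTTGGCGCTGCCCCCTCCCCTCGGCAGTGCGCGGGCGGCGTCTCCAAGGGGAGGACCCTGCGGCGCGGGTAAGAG
Col1a2: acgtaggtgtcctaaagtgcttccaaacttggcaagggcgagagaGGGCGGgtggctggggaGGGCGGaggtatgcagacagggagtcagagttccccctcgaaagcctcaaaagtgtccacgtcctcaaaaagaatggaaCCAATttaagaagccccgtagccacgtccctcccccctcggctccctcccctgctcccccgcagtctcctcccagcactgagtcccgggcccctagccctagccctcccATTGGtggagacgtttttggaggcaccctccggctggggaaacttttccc
Col3a1: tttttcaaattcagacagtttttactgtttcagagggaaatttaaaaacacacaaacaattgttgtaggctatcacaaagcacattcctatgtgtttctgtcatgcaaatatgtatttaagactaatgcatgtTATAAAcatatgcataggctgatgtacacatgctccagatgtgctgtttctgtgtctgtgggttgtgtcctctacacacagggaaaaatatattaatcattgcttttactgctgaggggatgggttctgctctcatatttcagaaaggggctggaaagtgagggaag

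The windows differed in base composition, at 74.0% G or C for Col4a1, 73.7% for Col4a2, 61.0% for Col1a2 and 37.7% for Col3a1, with a median of 52.7% over all RefSeq windows. The Col4a1 window held 1 match to CCAAT and 1 to GGGCGG. The Col4a2 window held 1 to CCAAT and 3 to GGGCGG, and the Col1a2 window 2 to each. None of these 3 windows held TATAAA. The Col3a1 window held 1 match to TATAAA and none to the other 2 motifs. No match overlapped another. Among 32851 windows, CCAAT was found in 37.4%, GGGCGG in 35.7% and TATAAA in 13.6%. Among the 27 windows of the 23 members, CCAAT was found in 11, GGGCGG in 17 and TATAAA in 6. These matches describe the letters of the windows and are not evidence of binding.

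Libraries held 21892817 to 27985019 gene counts. The sample titles, which define the groups, are contradicted by a separate genotype label in 6 of the 12 libraries, so Cdk7 itself was read as a check and not to assign groups. Cdk7 was at 18.1 to 23.6 CPM in ko CL and 11.02 to 11.7 in ko saline, against 30.4 to 35.4 in wt CL and 29.3 to 29.96 in wt saline (CPM, each library's counts brought to the same total with TMM scaling). The ko libraries were therefore all below the wt libraries, as the titles have it.

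Markers of the cell types in the fat pad moved with the groups, and their part in the matrix results was not tested. The summed level of 14 macrophage markers was 11759 to 16966 CPM in ko CL and 1603 to 1684 in ko saline, against 901 to 1090 in wt CL and 1630 to 1714 in wt saline. All 14 were called higher in ko CL than in ko saline, against 27.2% of all genes. The summed level of 12 fibroblast and progenitor markers was 4068 to 4284 CPM in ko CL and 5052 to 6635 in ko saline, against 4882 to 5689 in wt CL and 10225 to 11401 in wt saline. Gsn, encoding gelsolin, made up 82.2% of that sum over the 12 libraries, at 2843 to 3131 CPM in ko CL and 3983 to 5460 in ko saline, against 3975 to 4783 in wt CL and 8848 to 9993 in wt saline. The other 11 markers summed to 1153 to 1367 CPM in ko CL and 1068 to 1187 in ko saline, against 862 to 908 in wt CL and 1373 to 1408 in wt saline. Of the 12, 9 were called higher and 1 (Gsn) lower in ko CL than in wt CL, against 27.6% and 29.3% of all genes. Between ko CL and ko saline, 4 were called higher and 3 lower, near the 27.2% and 27.5% of all genes. Between wt CL and wt saline, 9 of the 12 were called lower and none higher, against 17.1% and 19.6% of all genes. In that wt comparison, 10 of 14 macrophage and all 10 mesothelial markers were also called lower, with none higher. Of the 10 endothelial markers, 5 were called higher there and none lower. The 12 adipocyte markers summed to 13324 to 21780 CPM in ko CL and 26059 to 28891 in ko saline, against 53212 to 57625 in wt CL and 47258 to 53506 in wt saline. Macrophage sums were thus at their highest, and adipocyte sums at their lowest, in ko CL. The 10 endothelial markers summed to 644 to 823 CPM in ko CL and 1033 to 1096 in ko saline, against 1358 to 1721 in wt CL and 1157 to 1192 in wt saline. The 9 smooth muscle and pericyte markers summed to 591 to 764 CPM in ko CL and 1285 to 1591 in ko saline, against 1146 to 1314 in wt CL and 1381 to 1769 in wt saline. The 10 mesothelial markers summed to 204 to 270 CPM in ko CL and 286 to 424 in ko saline, against 161 to 189 in wt CL and 353 to 432 in wt saline. Markers of ciliated and duct epithelium, which is not part of fat, summed to 104 to 140 CPM in ko saline and 49.3 in wt saline 1, and to at most 18.7 in the other 8 libraries. The 8 proliferation markers summed to 215 to 280 CPM in ko CL and 45.9 to 67.3 in ko saline, against 160 to 172 in wt CL and 34.96 to 49.4 in wt saline. No marker of these lists was at 0 in all libraries.

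Most members fell with CL in wt fat, while in ko fat more members rose than fell. In wt mice, 22 of the 34 members fell with CL and 1 rose, against a background of 17.1% of 16554 genes called lower, 19.6% called higher and 36.8% called in either direction (edgeR quasi-likelihood test, Benjamini-Hochberg adjusted p under 0.05). In ko mice, 15 rose and 7 fell with CL, against a background of 27.2% called higher, 27.5% called lower and 54.6% in either direction. In bulk tissue, fewer cells of a type and less RNA per cell cannot be told apart. The difference between the 2 responses was called for 22 members, 20 with the higher response in ko and 2 with the lower, against backgrounds of 21.8% and 23.6%, and 45.4% in either direction. A higher response in ko was not always a rise. Of these 20, Col6a1, Eln, Col12a1, Col16a1 and Col18a1 fell in wt with no response called in ko. The median log2 difference of responses was 0.87 over the 34 members and -0.03 over all genes.

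Under saline, 5 of the 34 members differed between the genotypes, a share near the 14.4% of all genes. None of the members was called higher in ko saline than in wt saline and 5 were called lower, against backgrounds of 7.99% and 6.45%, and 14.4% in either direction. The 5 were Thbs1, Col5a3, Col18a1, Thbs2 and Col12a1. At an unadjusted p under 0.05, 4 members were higher in ko saline, and DESeq2 called 1 higher. Under CL, 19 members were higher and 3 lower in ko than in wt, against backgrounds of 27.6% and 29.3%, and 56.8% in either direction. The median log2 fold change of the members was -0.46 for CL in wt and 0.23 for CL in ko, against -0.01 over all genes for both. It was -0.01 for ko against wt under saline, where all genes were at -0.01, and 0.77 under CL, where all genes were at 0.00. The libraries of the 2 groups did not overlap for 24 members for CL in ko and 26 for CL in wt, against 60.9% and 51.0% of all genes. For ko against wt they did not overlap for 22 members under CL, a share near the 63.6% of all genes. Under saline they did not overlap for 11 members, a share not above the 37.7% of all genes. Libraries without overlap were thus common among all genes. The comparisons share groups of libraries, so that their values are not independent of each other.

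Scaling by library size alone, without TMM, moved the median of all genes to -0.33 for CL in wt, -0.10 for CL in ko, 0.15 for ko against wt under saline, 0.39 for ko against wt under CL and 0.20 for the difference of responses. With that scaling, 1 member was called higher and 29 lower for CL in wt, and 11 higher and 9 lower for CL in ko. For ko against wt, 8 were called higher and 4 lower under saline and 27 higher and 1 lower under CL, and in the difference of responses 25 were higher and 1 lower. Of all 16554 genes, that scaling called 1329 higher and 8044 lower for CL in wt, and 3702 and 5474 for CL in ko. For ko against wt it called 3731 and 506 under saline and 8667 and 2240 under CL, and for the difference 5386 and 2267. No value called with TMM changed sign.

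**Figure D1:**
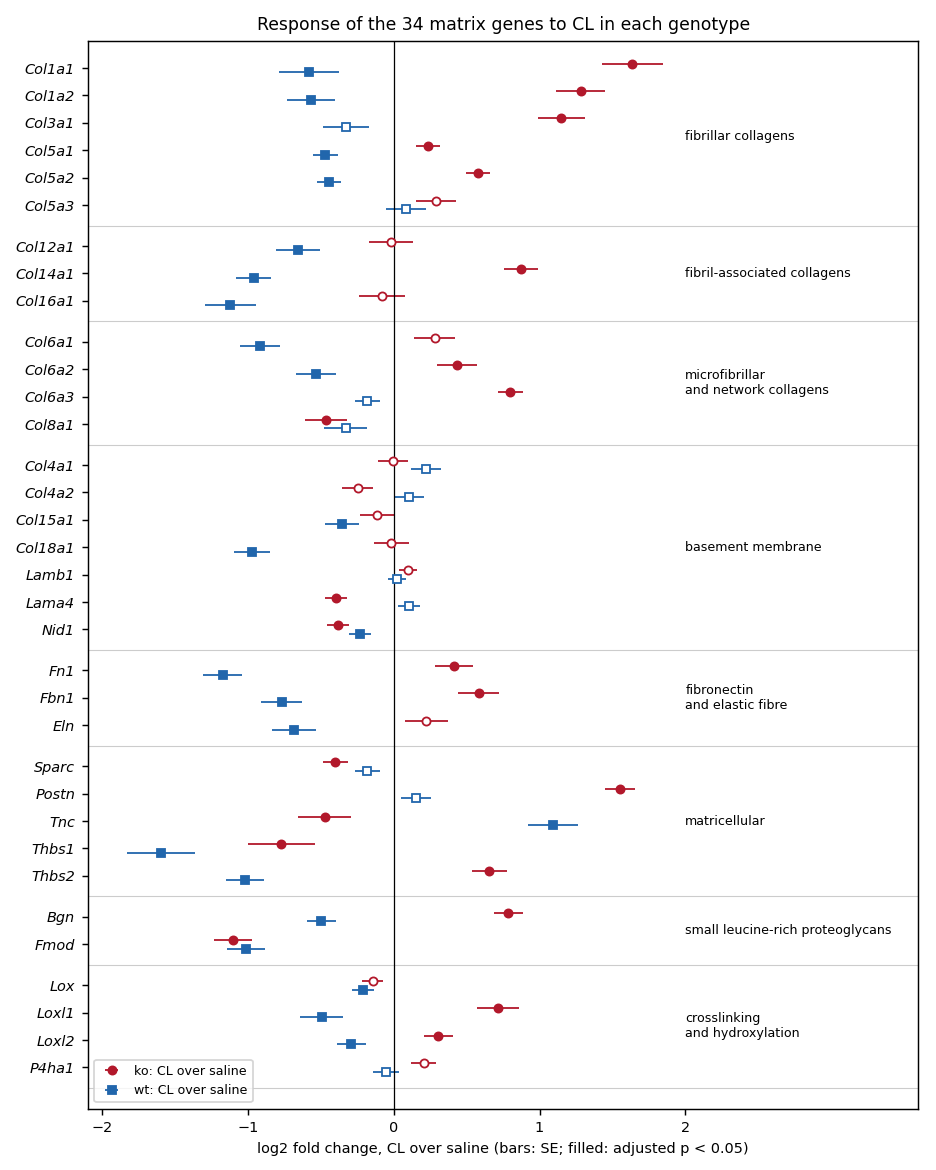
Log2 fold change of CL against saline for each of the 34 members, in ko and in wt fat, with bars of 1 SE and filled points for an adjusted p under 0.05. Col1a1 lies at 1.64 in ko and -0.58 in wt, most fibrillar and elastic fibre genes show the same split, and Tnc lies on the other side, at -0.47 in ko and 1.09 in wt.

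The share of the 34 members in all gene counts was taken without TMM scaling, unlike the sums in CPM that follow. It was 2.13 ± 0.11% in ko CL and 1.92 ± 0.19% in ko saline, against 1.11 ± 0.063% in wt CL and 1.68 ± 0.066% in wt saline (SD, n = 3 each). Summed over the 6 fibrillar collagens, the level was 5785 ± 473 CPM in ko CL and 2851 ± 518 CPM in ko saline, against 2428 ± 339 CPM in wt CL and 2975 ± 155 CPM in wt saline. Summed over the 7 basement membrane genes, it was 4649 ± 365 CPM in ko CL and 5287 ± 233 CPM in ko saline, against 5006 ± 234 CPM in wt CL and 5175 ± 198 CPM in wt saline. In CPM, the fibrillar sum exceeded the basement membrane sum in the 3 ko CL libraries, by a ratio of 1.13 to 1.45, and was 0.445 to 0.628 of it in the other 9. These sums are not corrected for transcript length, so they do not show which family had more molecules. Col3a1 alone had a mean of 3184 CPM in ko CL, a large part of the fibrillar sum. Summed over the 4 crosslinking and hydroxylation genes, the level was 245 ± 19.8 CPM in ko CL and 209 ± 15 CPM in ko saline, against 170.4 ± 11 CPM in wt CL and 201 ± 0.34 CPM in wt saline.

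**Figure D2:**
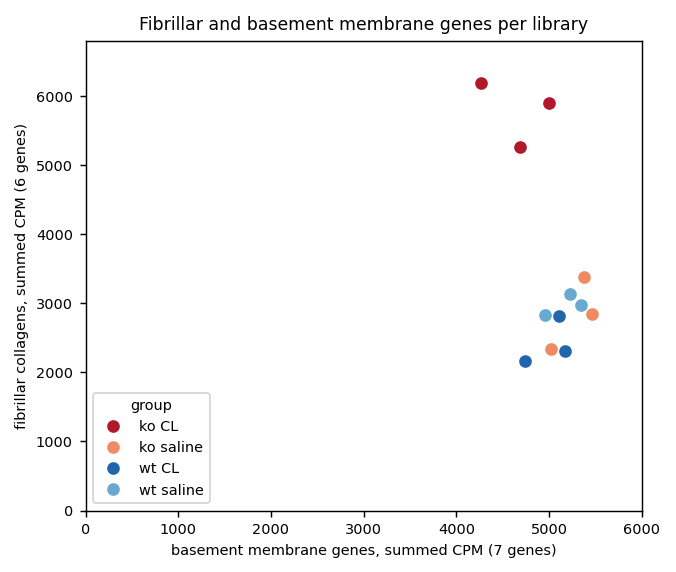
Summed level of the 6 fibrillar collagens against that of the 7 basement membrane genes, in CPM, 1 point per library. The 3 ko CL libraries lie at 5267 to 6194 CPM of fibrillar collagens, above the other 9 at 2170 to 3373, while all 12 libraries span 4269 to 5465 CPM of basement membrane genes.

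Among the fibrillar collagens, 5 of 6 rose with CL in ko and none fell, against 27.2% and 27.5% of all genes. In wt, 4 of 6 fell with CL and none rose, against 17.1% and 19.6% of all genes. Col1a1 (ENSMUSG00000001506, GRCm38 chr11:94936224-94953042, plus strand), which encodes the alpha1 chain of collagen I, was at 507, 427 and 510.0 CPM in the ko CL libraries and 112, 154 and 199 CPM in ko saline, against 144, 98.1 and 81.4 CPM in wt CL and 157, 174 and 152 CPM in wt saline. The ko CL libraries lay above the other 9, wt CL lay below wt saline, and the 2 saline groups overlapped. CL changed it on the log2 scale by 1.64 ± 0.21 (adjusted p = 2.66e-05) in ko and -0.58 ± 0.21 (adjusted p = 0.0427) in wt, a difference of 2.22 ± 0.29 (adjusted p = 6.05e-05). Col1a2 (ENSMUSG00000029661, GRCm38 chr6:4504814-4541544, plus strand), the alpha2 chain of the same trimer, was at 1138, 936 and 1068 CPM in the ko CL libraries and 335, 413 and 543 CPM in ko saline, against 349.7, 269.6 and 238 CPM in wt CL and 433, 439 and 399 CPM in wt saline. Its ko CL libraries were again above all others, and its CL response was 1.28 ± 0.17 in ko and -0.57 ± 0.17 in wt on the log2 scale, with a difference of 1.85 ± 0.23 (adjusted p = 4.39e-05). Col3a1 (ENSMUSG00000026043, GRCm38 chr1:45311538-45349706, plus strand), the homotrimeric fibrillar collagen of soft tissues and the fibrillar member with the highest level per length, was at 3562, 2786 and 3202 CPM in the ko CL libraries and 1126, 1423 and 1752 CPM in ko saline, against 1218, 991 and 901 CPM in wt CL and 1300, 1407 and 1190 CPM in wt saline. All 3 ko CL libraries exceeded the rest, while wt CL and wt saline overlapped. On the log2 scale the CL response was 1.15 ± 0.16 (adjusted p = 5.51e-05) in ko and -0.33 ± 0.16 (adjusted p = 0.125) in wt, which did not pass the test, and the difference was 1.48 ± 0.22 (adjusted p = 0.000177).

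The collagen V chains, which start and limit the width of collagen I fibrils, did not move as one. Col5a1 was at 289, 264 and 301 CPM in the ko CL libraries and 216, 256 and 254 CPM in ko saline, against 182, 161 and 155 CPM in wt CL and 236, 226 and 227 CPM in wt saline. In wt CL the levels were the lowest and the ko CL libraries the highest, without overlap. Its CL response was 0.23 ± 0.08 (adjusted p = 0.0322) in ko and -0.47 ± 0.09 (adjusted p = 0.000973) in wt, and the difference was 0.70 ± 0.12 (adjusted p = 0.000435). Col5a2, which lies tail to tail with Col3a1 on chromosome 1 with 24614 bases between them, was at 389, 359 and 360.4 CPM in the ko CL libraries and 215, 259 and 269 CPM in ko saline, against 192, 178 and 183 CPM in wt CL and 247, 260.4 and 247 CPM in wt saline. As for Col5a1, the ko CL libraries were the highest and the wt CL libraries the lowest, without overlap. The log2 fold change of Col5a2 with CL was 0.58 ± 0.08 in ko and -0.45 ± 0.08 in wt, with a difference of 1.02 ± 0.12 (adjusted p = 1.75e-05). Col5a3 (ENSMUSG00000004098, GRCm38 chr9:20770050-20815067, minus strand), the third chain, was at 309.6, 494 and 451 CPM in the ko CL libraries and 333, 339.6 and 355 CPM in ko saline, against 725, 605 and 610.4 CPM in wt CL and 597, 625 and 607 CPM in wt saline. All 6 ko libraries lay below all 6 wt libraries. On the log2 scale ko differed from wt by -0.63 ± 0.14 (adjusted p = 0.00153) under CL and -0.83 ± 0.14 (adjusted p = 0.00247) under saline, and no CL response was called, at 0.29 ± 0.14 in ko and 0.09 ± 0.14 in wt. Under CL the call was lost with scaling by library size alone, at -0.24 (adjusted p = 0.131).

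Some of the smaller fibrillar calls lay near the threshold. The fall of Col1a1 in wt was not called without wt saline 1, wt saline 2, wt saline 3, wt CL 2 or wt CL 3 (log2 fold change -0.62 to -0.41, adjusted p = 0.0659 to 0.172). It was lost as well with a replicate block (-0.59, adjusted p = 0.0651) or DESeq2 (-0.60, adjusted p = 0.052). The fall of Col1a2 in wt was not called without wt CL 2 or wt CL 3 (log2 fold change -0.53 to -0.45, adjusted p = 0.0633 to 0.0817). The rise of Col5a1 in ko was not called without ko saline 1, ko saline 2, ko saline 3, ko CL 1 or ko CL 3 (log2 fold change 0.13 to 0.25, adjusted p = 0.0589 to 0.243). The test was also not passed with scaling by library size alone (0.15, adjusted p = 0.173), no filter on low counts (0.21, adjusted p = 0.0803), a replicate block (0.23, adjusted p = 0.0549) or only the compared groups in the fit (0.22, adjusted p = 0.0941). The other fibrillar calls of CL against saline and of ko against wt held when any 1 library was left out.

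**Figure D3:**
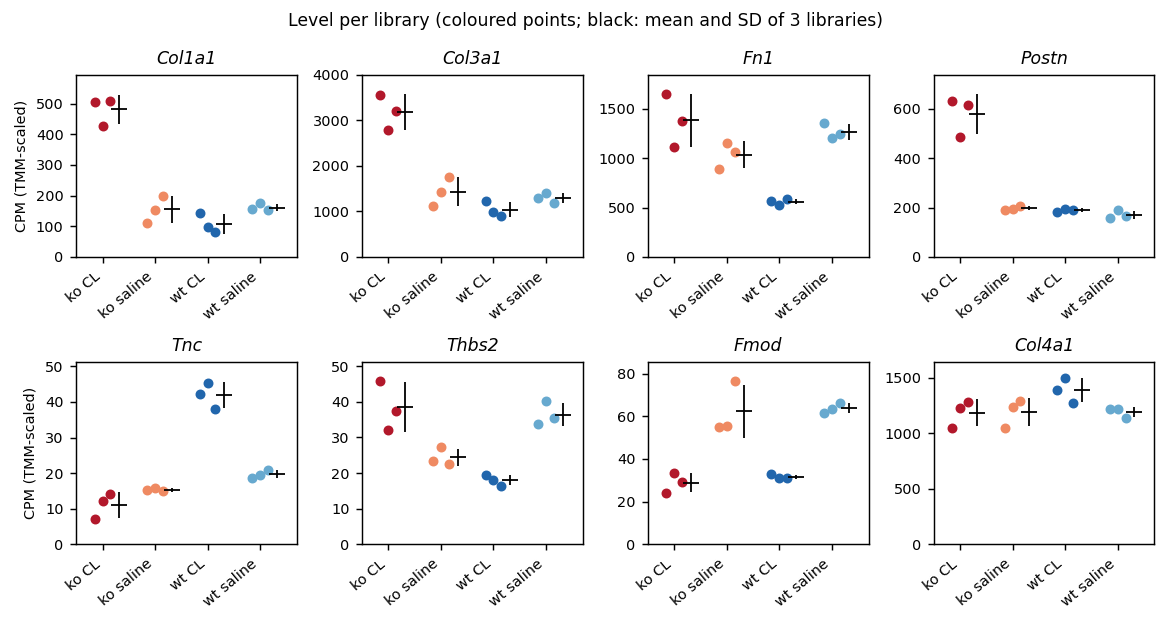
Levels in CPM, on axes that start at 0, of members of different families in each of the 12 libraries, with the mean of each group and bars of 1 SD. The ko CL libraries are above all others for Col1a1, at 427 to 510.0 CPM, for Col3a1 and for Postn, the wt CL libraries are above all others for Tnc, at 38.0 to 45.3 CPM, and Col4a1 overlaps between ko CL and each other group.

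The 3 fibril-associated collagens all fell with CL in wt, against 17.1% of all genes. With CL in ko, 1 of the 3 rose, against 27.2% of all genes. Col14a1 (ENSMUSG00000022371, GRCm38 chr15:55307750-55520803, plus strand), which coats collagen I fibrils and has the highest level per length of the family, was at 247, 182 and 189.6 CPM in the ko CL libraries and 103, 114 and 121 CPM in ko saline, against 63.6, 56.1 and 65.3 CPM in wt CL and 107, 122 and 131 CPM in wt saline. In ko CL the values were all highest and the wt CL libraries all lowest. Its log2 fold change with CL was 0.87 ± 0.12 (adjusted p = 4.13e-05) in ko and -0.96 ± 0.12 (adjusted p = 6.15e-05) in wt, and the difference was 1.83 ± 0.17 (adjusted p = 2.82e-06). Col16a1 was at 17.00, 16.02 and 15.3 CPM in the ko CL libraries and 12.2, 19.9 and 19.1 CPM in ko saline, against 6.76, 4.94 and 5.65 CPM in wt CL and 12.7, 13.3 and 11.8 CPM in wt saline. The wt CL libraries lay below the other 9, while ko CL lay within the range of ko saline. The CL response was -1.12 ± 0.17 in wt and -0.08 ± 0.16 in ko, where it was not called, with a difference of 1.04 ± 0.24 (adjusted p = 0.00298). Col12a1, a collagen of tissues under tension, was at 12.3, 9.01 and 11.2 CPM in the ko CL libraries and 10.5, 12.00 and 10.4 CPM in ko saline, against 11.9, 10.3 and 8.75 CPM in wt CL and 15.2, 19.3 and 14.3 CPM in wt saline. Here wt saline lay above the other 9 libraries, which overlapped each other. The fold changes were -0.65 ± 0.15 (adjusted p = 0.00459) for CL in wt and -0.56 ± 0.15 (adjusted p = 0.0242) for ko against wt under saline, and the difference of responses was 0.64 ± 0.21 (adjusted p = 0.027). The saline call of Col12a1 was lost without wt saline 2, ko saline 1 or ko saline 3 (log2 fold change -0.53 to -0.42, adjusted p = 0.0748 to 0.0991). That call was also lost with scaling by library size alone (-0.41, adjusted p = 0.061). Its difference of responses was not called without wt saline 2, wt CL 2, wt CL 3, ko saline 1, ko saline 3, ko CL 1 or ko CL 3 (log2 fold change 0.49 to 0.64, adjusted p = 0.0512 to 0.0749).

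Collagen VI is a microfibrillar collagen made by fibroblasts and adipocytes and known from work on fibrosis of fat. With CL, 2 of its 3 chains fell in wt and 2 rose in ko, against 17.1% and 27.2% of all genes. Col6a1 (ENSMUSG00000001119, GRCm38 chr10:76708792-76726168, minus strand), the chain with the highest or next highest level per length in the family, was at 674, 663 and 712 CPM in the ko CL libraries and 449, 630.2 and 609 CPM in ko saline, against 403, 310.5 and 280.2 CPM in wt CL and 615, 661 and 600.1 CPM in wt saline. Levels in wt CL were all lowest, and ko CL lay above ko saline and, by a small margin, above wt saline. The log2 fold change with CL was -0.92 ± 0.14 (adjusted p = 0.000268) in wt and 0.28 ± 0.14 (adjusted p = 0.104) in ko, which did not pass the test, and the difference was 1.20 ± 0.20 (adjusted p = 0.000318). Col6a2, the neighbour of Col6a1 on chromosome 10 at a distance of 85161 bases, was at 604, 616 and 637 CPM in the ko CL libraries and 368, 504 and 506 CPM in ko saline, against 400.1, 304 and 277 CPM in wt CL and 477, 493 and 452 CPM in wt saline. Libraries of the ko CL group were highest, and ko saline 1 fell within the range of wt CL. Its CL response was 0.43 ± 0.14 in ko and -0.54 ± 0.14 in wt, with a difference of 0.97 ± 0.19 (adjusted p = 0.00134). Col6a3, whose C-terminal fragment is known as endotrophin, was at 545, 479 and 573 CPM in the ko CL libraries and 285, 323 and 309 CPM in ko saline, against 299, 271 and 262 CPM in wt CL and 321, 325 and 298 CPM in wt saline. Again ko CL exceeded the rest, while wt CL and wt saline overlapped. Its log2 fold change was 0.80 ± 0.09 (adjusted p = 5.31e-06) in ko and -0.18 ± 0.08 (adjusted p = 0.111) in wt, not called, with a difference of 0.98 ± 0.12 (adjusted p = 3.3e-05). Col8a1, a network collagen of vessel walls, was low at 7.54 to 13.5 CPM in all libraries and fell with CL in ko, at -0.47 ± 0.14 (adjusted p = 0.0146). The rise of Col6a2 in ko was not called without ko saline 1 or ko CL 3 (log2 fold change 0.26 to 0.38, adjusted p = 0.0682 to 0.111). It was lost as well with scaling by library size alone (0.34, adjusted p = 0.0509).

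The basement membrane genes did not share the rise of the fibrillar collagens with CL in ko. None of the 7 was called higher in any of the 4 pairwise comparisons. Lower calls numbered 2 for CL in ko, 3 for CL in wt, 1 for ko against wt under CL and 1 under saline. Of all genes, 27.5%, 17.1%, 29.3% and 6.45% were called lower in these comparisons, and 27.2%, 19.6%, 27.6% and 7.99% higher. The counts of 7 genes were not tested against these shares. With scaling by library size alone, the absence of higher calls did not hold for ko against wt. There, 5 of the 7 (Col4a2, Col15a1, Col18a1, Lamb1 and Nid1) were called higher under CL and 3 (Col4a2, Lama4 and Nid1) under saline. For CL against saline none was called higher with that scaling, and 3 were lower in ko and 5 in wt. Col4a1 (ENSMUSG00000031502, GRCm38 chr8:11198423-11312826, minus strand) and Col4a2 (ENSMUSG00000031503, GRCm38 chr8:11312805-11449287, plus strand) encode the chains of the collagen IV trimer found in most basement membranes. Col4a1, the family's highest member per length in ko CL and wt CL, was at 1049, 1231 and 1279 CPM in the ko CL libraries and 1048, 1237 and 1287 CPM in ko saline, against 1395, 1497 and 1275 CPM in wt CL and 1218, 1216 and 1136 CPM in wt saline. The ko CL libraries overlapped both ko saline and wt CL. No comparison of Col4a1 was called, with log2 values of -0.01 ± 0.10 for CL in ko, 0.22 ± 0.10 for CL in wt and -0.23 ± 0.15 (adjusted p = 0.222) for their difference. Col4a2, at 706 to 1016 CPM over all libraries, was not called in any comparison with TMM scaling either, with a difference of responses of -0.35 ± 0.15 (adjusted p = 0.0645). DESeq2 did call that difference, at -0.34 (adjusted p = 0.0437), and a fall of Col4a2 with CL in ko, at -0.26 (adjusted p = 0.0289). Nid1, encoding nidogen 1, which links laminin to collagen IV, had the family's highest level per length under saline and was at 1077, 979 and 1119 CPM in the ko CL libraries and 1399, 1372 and 1366 CPM in ko saline, against 1129, 1119 and 1108 CPM in wt CL and 1371, 1236 and 1328 CPM in wt saline. CL libraries lay below saline libraries in both genotypes, at -0.38 ± 0.07 (adjusted p = 0.000837) in ko and -0.23 ± 0.07 (adjusted p = 0.0287) in wt, and the difference of these responses was -0.15 ± 0.11 and not called. Lamb1, a laminin beta chain, moved least, at 327 to 369 CPM in all 12 libraries with no call under TMM scaling.

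Within this family, 2 of 7 members had different CL responses by genotype, against 45.4% of all genes. Col18a1 (ENSMUSG00000001435, GRCm38 chr10:77052178-77166548, minus strand), a basement membrane collagen whose C-terminal fragment is endostatin, was at 93.99, 103 and 101 CPM in the ko CL libraries and 83.9, 108 and 109.9 CPM in ko saline, against 106, 85.5 and 74.6 CPM in wt CL and 167, 183 and 172 CPM in wt saline. The wt saline libraries were all above the other 9. In log2 terms CL gave -0.97 ± 0.12 (adjusted p = 6.6e-05) in wt and -0.02 ± 0.12 in ko, not called, and ko saline was below wt saline, at -0.79 ± 0.12 (adjusted p = 0.00161). The difference of its responses was 0.96 ± 0.17 (adjusted p = 0.000616). Lama4, the laminin chain of adipocyte and endothelial basement membranes, was at 367, 380.0 and 414 CPM in the ko CL libraries and 538, 512 and 478 CPM in ko saline, against 510.5, 514 and 533 CPM in wt CL and 520.4, 471 and 456 CPM in wt saline. Here the ko CL libraries were below all others. All 10 endothelial and all 12 adipocyte markers were also called lower in ko CL than in wt CL, against 29.3% of all genes. The part of these cell types in the level of Lama4 was not tested. The log2 fold change of Lama4 was -0.40 ± 0.08 (adjusted p = 0.000781) for CL in ko and 0.11 ± 0.08 for CL in wt, with a difference of -0.50 ± 0.11 (adjusted p = 0.00221). With library size alone, Lama4 was not called for ko against wt under CL, at -0.041, nor for the difference, at -0.27. Col15a1, a collagen at the outer face of basement membranes, ranged over 628 to 945 CPM and fell with CL in wt, at -0.35 ± 0.12 (adjusted p = 0.0323). That call was lost without wt saline 1, wt saline 2, wt CL 2 or wt CL 3 (log2 fold change -0.35 to -0.29, adjusted p = 0.0804 to 0.123). The wt call of Nid1 was lost without wt saline 1, wt saline 3, wt CL 1, wt CL 2 or wt CL 3 (log2 fold change -0.24 to -0.21, adjusted p = 0.0615 to 0.0982).

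Fibronectin and the elastic fibre genes had the pattern of the fibrillar collagens, with all 3 lower after CL in wt, 2 of 3 higher after CL in ko, and all 3 higher in ko than in wt under CL. Of all genes, 17.1%, 27.2% and 27.6% were called in these directions. Fn1 (ENSMUSG00000026193, GRCm38 chr1:71585520-71653200, minus strand), which encodes fibronectin, the glycoprotein on which collagen fibrils are laid down, had the highest level per length of the family and was at 1653, 1114 and 1378 CPM in the ko CL libraries and 892, 1155 and 1062 CPM in ko saline, against 571, 527 and 584 CPM in wt CL and 1354, 1203 and 1240 CPM in wt saline. The wt CL libraries stood below the other 9, while ko CL overlapped both saline groups. As a log2 fold change, CL gave 0.41 ± 0.13 (adjusted p = 0.0172) in ko and -1.17 ± 0.13 (adjusted p = 3.11e-05) in wt, and the difference was 1.59 ± 0.19 (adjusted p = 2.48e-05). Fbn1, which encodes fibrillin 1 and the hormone asprosin at its end, was at 1126, 746 and 928 CPM in the ko CL libraries and 521, 648 and 699.5 CPM in ko saline, against 399, 346 and 376 CPM in wt CL and 686, 584 and 640.3 CPM in wt saline. Values in ko CL were highest and the wt CL libraries lowest, without overlap. The responses were 0.58 ± 0.14 in ko and -0.77 ± 0.14 in wt, with a difference of 1.35 ± 0.20 (adjusted p = 0.000151). Eln, encoding elastin, was at 88.8, 86.04 and 82.98 CPM in the ko CL libraries and 59.6, 81.4 and 79.8 CPM in ko saline, against 44.9, 55.4 and 35.5 CPM in wt CL and 82.3, 72.1 and 63.8 CPM in wt saline. The wt CL libraries were lowest, and ko CL was above the saline libraries by a small margin. Its response was -0.69 ± 0.15 (adjusted p = 0.00358) in wt and 0.22 ± 0.15 (adjusted p = 0.219) in ko, not called, with a difference of 0.91 ± 0.21 (adjusted p = 0.00367). The rise of Fn1 in ko was not called without ko saline 1, ko saline 3, ko CL 1 or ko CL 3 (log2 fold change 0.24 to 0.40, adjusted p = 0.0505 to 0.11). The test was also not passed with scaling by library size alone (0.33, adjusted p = 0.0524) or only the compared groups in the fit (0.40, adjusted p = 0.0645).

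The matricellular genes split in different directions. Postn (ENSMUSG00000027750, GRCm38 chr3:54361109-54391037, plus strand), encoding periostin, which aids collagen crosslinking and is made by activated fibroblasts, was at 632, 486 and 618 CPM in the ko CL libraries and 190.0, 195 and 207 CPM in ko saline, against 181, 196 and 192 CPM in wt CL and 157, 189 and 165 CPM in wt saline. The ko CL libraries lay far above the other 9, which spanned 157 to 207 CPM. Its log2 fold change with CL was 1.55 ± 0.10 (adjusted p = 7.18e-08) in ko and 0.15 ± 0.10 (adjusted p = 0.254) in wt, not called, with a difference of 1.40 ± 0.14 (adjusted p = 6.95e-06). Tnc (ENSMUSG00000028364, GRCm38 chr4:63959785-64047015, minus strand), encoding tenascin C, a glycoprotein of wounds and remodelling tissue, was at 6.96, 12.1 and 14.05 CPM in the ko CL libraries and 15.1, 15.8 and 14.8 CPM in ko saline, against 42.3, 45.3 and 38.00 CPM in wt CL and 18.5, 19.6 and 20.8 CPM in wt saline. Levels in wt CL were all highest and the ko CL libraries all lowest. It rose with CL in wt by 1.09 ± 0.17 (adjusted p = 0.000341) and fell in ko, at -0.47 ± 0.18 (adjusted p = 0.0401), with a difference of -1.57 ± 0.25 (adjusted p = 0.000252). Thbs2, encoding thrombospondin 2, an inhibitor of vessel growth, was at 45.99, 32.1 and 37.3 CPM in the ko CL libraries and 23.5, 27.2 and 22.5 CPM in ko saline, against 19.4, 18.03 and 16.5 CPM in wt CL and 33.8, 40.1 and 35.4 CPM in wt saline. In wt CL the levels were lowest, ko saline next, and ko CL overlapped wt saline. Its responses were 0.66 ± 0.12 in ko and -1.02 ± 0.13 in wt, with a difference of 1.68 ± 0.18 (adjusted p = 9.62e-06).

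Thbs1, encoding thrombospondin 1, an activator of latent TGF-beta, fell with CL in both genotypes. It was at 49.7, 38.4 and 42.05 CPM in the ko CL libraries and 63.5, 109 and 50.2 CPM in ko saline, against 43.3, 49.2 and 45.8 CPM in wt CL and 109, 160.4 and 149.9 CPM in wt saline. Both CL groups overlapped at the low end, and all wt saline libraries were above both. The log2 fold change with CL was -0.77 ± 0.23 (adjusted p = 0.0121) in ko and -1.60 ± 0.23 (adjusted p = 0.000189) in wt, ko saline was below wt saline at -0.92 ± 0.23 (adjusted p = 0.0184), and the difference of responses, 0.83 ± 0.32 (adjusted p = 0.0524), did not pass the test. It did with no filter on low counts, at 0.84 (adjusted p = 0.0111). Sparc, encoding osteonectin, a collagen-binding protein and the highest of the 34 members per length in every group, was at 3552, 3282 and 3647 CPM in the ko CL libraries and 4212, 4801 and 4827 CPM in ko saline, against 3327, 3515 and 3362 CPM in wt CL and 3884, 3870 and 3814 CPM in wt saline. The ko saline libraries were above the other 9. Sparc fell with CL in ko, at -0.40 ± 0.08 (adjusted p = 0.00139), and was at -0.18 ± 0.08 in wt, not called. The fall of Tnc in ko was not called without ko saline 1, ko saline 2, ko saline 3 or ko CL 1 (log2 fold change -0.52 to -0.25, adjusted p = 0.0523 to 0.0825). That call was also lost with only the compared groups in the fit (-0.48, adjusted p = 0.106). The saline call of Thbs1 was lost without wt saline 2, wt saline 3, ko saline 1 or ko saline 3 (log2 fold change -0.87 to -0.70, adjusted p = 0.0549 to 0.0781).

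The 2 small leucine-rich proteoglycans, which bind collagen fibrils and set their spacing, differed from each other. Bgn (ENSMUSG00000031375, GRCm38 chrX:73483602-73495933, plus strand), encoding biglycan, the higher of the 2 per length, was at 753, 580.0 and 685 CPM in the ko CL libraries and 348, 422 and 401 CPM in ko saline, against 269, 273 and 264 CPM in wt CL and 402, 368 and 368 CPM in wt saline. The ko CL libraries were highest and the wt CL libraries lowest, with overlapping saline groups between them. CL changed it on the log2 scale by 0.79 ± 0.10 (adjusted p = 2.26e-05) in ko and -0.50 ± 0.10 (adjusted p = 0.00167) in wt, with a difference of 1.28 ± 0.14 (adjusted p = 1.21e-05). Fmod, encoding fibromodulin, fell with CL in both genotypes, to 24.2 to 33.5 CPM in ko CL, against 54.9 to 76.5 CPM in ko saline. In wt it was at 30.8 to 32.9 CPM after CL, against 61.5 to 66.1 CPM after saline. The log2 values were -1.11 ± 0.13 (adjusted p = 1.32e-05) in ko and -1.01 ± 0.13 (adjusted p = 8.37e-05) in wt, and the difference of -0.09 ± 0.18 was not called.

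Of the 4 crosslinking and hydroxylation genes, 2 rose with CL in ko and 3 fell with CL in wt, against 27.2% and 17.1% of all genes. With scaling by library size alone 1 rose and 1 fell in ko and 4 fell in wt. Lysyl oxidases oxidise lysines of collagen and elastin, from which the crosslinks form. Loxl1 (ENSMUSG00000032334, GRCm38 chr9:58287738-58313186, minus strand), a lysyl oxidase needed for elastic fibres, was at 51.9, 53.7 and 56.8 CPM in the ko CL libraries and 26.9, 32.4 and 39.5 CPM in ko saline, against 34.8, 28.02 and 23.04 CPM in wt CL and 42.4, 41.97 and 36.6 CPM in wt saline. Libraries of the ko CL group were above the other 9, and wt CL was below wt saline. On the log2 scale the CL response was 0.72 ± 0.14 (adjusted p = 0.000961) in ko and -0.50 ± 0.15 (adjusted p = 0.0184) in wt, with a difference of 1.21 ± 0.20 (adjusted p = 0.000397). Loxl2, a lysyl oxidase that acts on collagen IV among others, was at 74.8, 57.1 and 65.3 CPM in the ko CL libraries and 46.2, 53.9 and 59.3 CPM in ko saline, against 38.9, 38.6 and 38.4 CPM in wt CL and 46.5, 48.2 and 46.9 CPM in wt saline. The wt CL libraries were lowest, and ko CL overlapped ko saline. Its response was 0.31 ± 0.10 (adjusted p = 0.0182) in ko and -0.29 ± 0.10 (adjusted p = 0.0396) in wt, with a difference of 0.60 ± 0.14 (adjusted p = 0.00401).

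Lox, the family's highest member per length outside ko CL, was at 62.5, 54.8 and 65.9 CPM in the ko CL libraries and 66.1, 65.02 and 71.3 CPM in ko saline, against 60.4, 53.1 and 58.4 CPM in wt CL and 67.6, 64.1 and 66.9 CPM in wt saline. Its 12 values lay close together, and wt CL was below wt saline, at -0.21 ± 0.08 (adjusted p = 0.0458), while CL in ko gave -0.15 ± 0.07, not called, and the difference was 0.06 ± 0.11 (adjusted p = 0.657). P4ha1, a catalytic subunit of collagen prolyl hydroxylase, ranged over 41.1 to 71.0 CPM and was higher in ko than in wt under CL, at 0.48 ± 0.09 (adjusted p = 0.000392), with no call for CL in either genotype. The fall of Loxl1 in wt was not called without wt saline 2, wt CL 2 or wt CL 3 (log2 fold change -0.48 to -0.36, adjusted p = 0.0517 to 0.0882). The fall of Loxl2 in wt was not called without wt saline 1, wt saline 2, wt saline 3, wt CL 1, wt CL 2 or wt CL 3 (log2 fold change -0.32 to -0.27, adjusted p = 0.0587 to 0.0989). It was lost as well with a replicate block (-0.29, adjusted p = 0.0584). Its rise in ko was not called without ko saline 1, ko saline 2, ko CL 1 or ko CL 3 (log2 fold change 0.17 to 0.29, adjusted p = 0.0614 to 0.138). The test was also not passed with scaling by library size alone (0.22, adjusted p = 0.078) or only the compared groups in the fit (0.29, adjusted p = 0.0636). The fall of Lox in wt was not called without wt saline 1, wt saline 2, wt saline 3, wt CL 2 or wt CL 3 (log2 fold change -0.23 to -0.16, adjusted p = 0.0631 to 0.178).

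**Figure D4:**
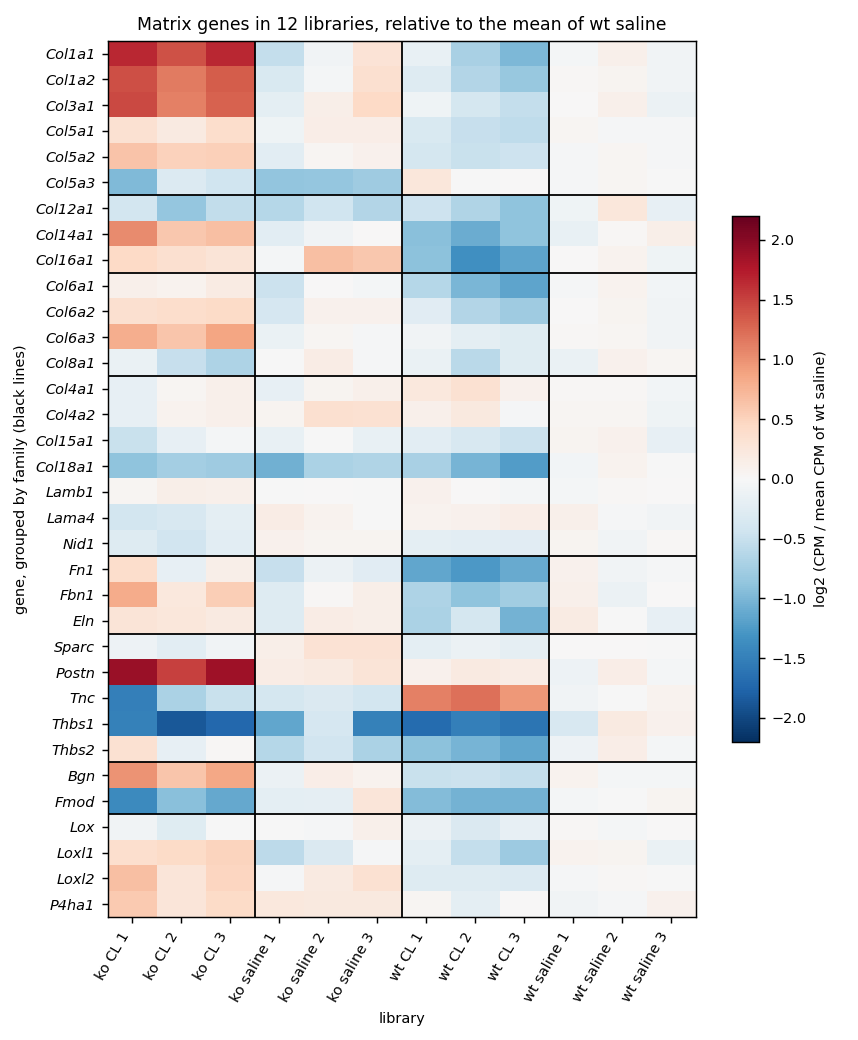
Level of the 34 members in the 12 libraries, ordered by family, as the log2 ratio of CPM to the mean of wt saline, with black lines between families and groups. The rows of Col1a1, Col1a2, Col3a1 and Postn are strongest in the ko CL columns, Fn1, Col14a1 and Col16a1 are weakest in the wt CL columns, and Lamb1, at 327 to 369 CPM, is nearly even.

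Levels of different members were compared per kilobase of the principal transcript, as CPM per kb. Sparc was highest in every group, at 1519 ± 82 in ko CL and 2006 ± 151 in ko saline, against 1479 ± 43 in wt CL and 1677 ± 16 in wt saline (SD, n = 3 each). Col3a1 came next in ko CL, at 572 ± 69.8, followed by Bgn at 278 ± 36, Col1a2 at 196 ± 19 and Postn at 181 ± 25. In wt CL, Col4a1 came after Sparc, at 210.0 ± 17, followed by Col3a1 at 186 ± 29 and Nid1 at 184 ± 1.8. The neighbours Col4a1, Col3a1 and Nid1 in wt CL differed by less than the SD of Col3a1, while Col3a1 in ko CL stood clear of the members below it. Col1a2 held rank 4 of 34 in ko CL and 12 in ko saline, against 15 in wt CL and 13 in wt saline. Postn held rank 5 in ko CL and 13 in ko saline, against 14 in wt CL and 15 in wt saline. Col12a1 was lowest in all 4 groups, at 0.897 to 1.41 CPM per kb. The order depends on the length used. Per kilobase of all exons joined, Sparc and Col3a1 still led in ko CL, at 922 and 324, but Bgn, at 110.3, Col1a2, at 84.3, and Postn, at 66.5, lay below Col4a1, at 159.

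Chains that assemble into 1 molecule did not keep a fixed ratio of counts, and these ratios were not tested. Col1a1 counts were 0.46 ± 0.016 of Col1a2 counts in ko CL and 0.357 ± 0.021 in ko saline, against 0.372 ± 0.035 in wt CL and 0.38 ± 0.017 in wt saline (SD, n = 3 each). The ko CL libraries held the 3 highest values of this ratio. The ratio of Col4a1 to Col4a2 was 1.48 ± 0.012 in ko CL and 1.25 ± 0.032 in ko saline, against 1.62 ± 0.0045 in wt CL and 1.49 ± 0.021 in wt saline, so that it was lowest in ko saline and highest in wt CL without overlap. Col5a3 over Col5a1 was 1.48 ± 0.4 in ko CL and 1.42 ± 0.11 in ko saline, against 3.89 ± 0.12 in wt CL and 2.65 ± 0.12 in wt saline, with all ko libraries below all wt libraries. Col6a3 over Col6a1 was 0.779 ± 0.049 in ko CL and 0.552 ± 0.072 in ko saline, against 0.85 ± 0.097 in wt CL and 0.503 ± 0.016 in wt saline. This last ratio was higher with CL in both genotypes, without overlap. Ratios of counts depend on transcript length and do not give the ratio of molecules.

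**Figure D5:**
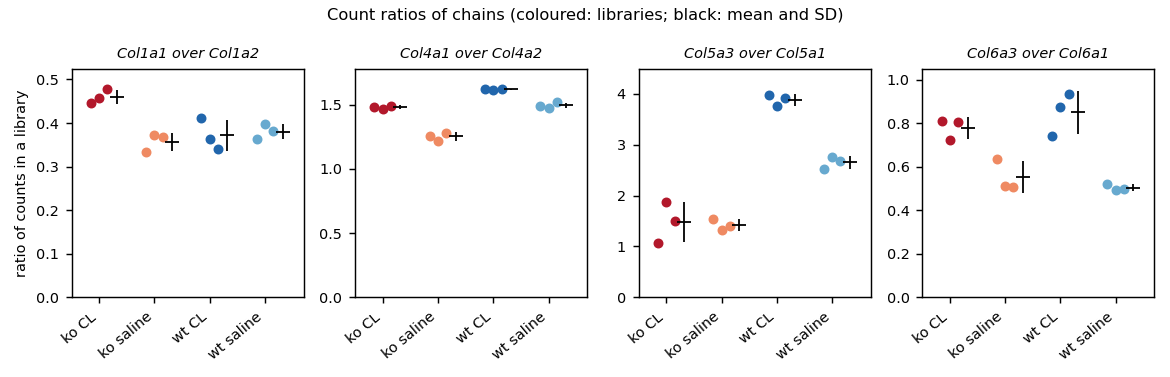
Ratio of the counts of 2 chains in each library, by group, on axes that start at 0, with the mean of each group and bars of 1 SD. Col1a1 over Col1a2 is highest in ko CL, and Col4a1 over Col4a2 is lowest in ko saline, at 1.22 to 1.28, and highest in wt CL, at 1.61 to 1.62.

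Other matrix genes were counted in 7 lists, of which 105 of 116 genes were tested. For CL in ko, 35 were called higher and 28 lower, or 33.3% and 26.7%, against 27.2% and 27.5% of all genes. For CL in wt, 7 were higher and 60 lower, or 6.67% and 57.1%, against 19.6% and 17.1% of all genes. For ko against wt under CL, 57 were higher and 9 lower, or 54.3% and 8.57%, against 27.6% and 29.3%. Under saline, 8 were higher and 5 lower, or 7.62% and 4.76%, near the 7.99% and 6.45% of all genes. In the difference of responses 51 were higher and 9 lower, or 48.6% and 8.57%, against 21.8% and 23.6%. The median log2 difference of responses was 0.46 over these genes. Among 21 tested genes of collagen hydroxylation, folding, secretion and processing, 17 were higher in ko than in wt under CL and none lower, against 27.6% and 29.3% of all genes. With CL in wt, 16 of them fell, against 17.1% of all genes. Colgalt1, a collagen galactosyltransferase, had a difference of responses of 1.28 ± 0.13 (adjusted p = 6.28e-06), and Pcolce, an enhancer of procollagen C-proteinase, one of 1.89 ± 0.20 (adjusted p = 1.06e-05). P4ha2, another prolyl hydroxylase subunit, instead fell with CL in both genotypes, at -0.84 ± 0.08 in ko and -0.81 ± 0.08 in wt.

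Among the 21 tested genes of elastic fibres and glycoproteins, 14 had a higher and 1 a lower response in ko, against 21.8% and 23.6% of all genes. Fbln2, encoding fibulin 2, differed by 1.62 ± 0.14 (adjusted p = 1.6e-06), and Emilin2, an elastin interface protein, by 1.92 ± 0.20 (adjusted p = 8.91e-06). Of the 8 tested proteoglycans beside Bgn and Fmod, 4 had a higher response in ko and none a lower, against the same shares of all genes. Lum, encoding lumican, rose with CL in ko by 1.41 ± 0.09 (adjusted p = 6.71e-08) and differed between responses by 1.31 ± 0.13 (adjusted p = 5.4e-06), while Prelp fell with CL in both genotypes, at -1.35 ± 0.11 in ko and -1.05 ± 0.11 in wt. Of 10 tested collagens outside the 34, 3 rose and 2 fell with CL in ko, and 2 rose and 2 fell in wt, shares near those of all genes given above. Col27a1, a fibrillar collagen of cartilage, rose in both, at 1.63 ± 0.19 in ko and 1.43 ± 0.19 in wt, and Col28a1 differed between responses by -1.32 ± 0.20 (adjusted p = 0.000165).

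Of the 16 other basement membrane genes, 2 rose and 8 fell with CL in ko, against 27.2% and 27.5% of all genes, and 1 rose and 8 fell in wt, against 19.6% and 17.1%. Lamb3, a laminin chain of epithelia, was higher in ko saline than in wt saline by 1.24 ± 0.10 (adjusted p = 1.8e-05) and fell with CL in ko, at -0.999 ± 0.10 (adjusted p = 3.02e-06). The ciliated and duct epithelium markers were also highest in ko saline, and their part in the level of Lamb3 was not tested. Of 16 matrix receptors, 9 had a higher and 3 a lower response in ko, against 21.8% and 23.6% of all genes. Cd44, the hyaluronan receptor, rose with CL in ko by 2.72 ± 0.16 (adjusted p = 2.95e-08) and Sdc1, encoding syndecan 1, by 2.12 ± 0.18 (adjusted p = 5.93e-07). All 14 macrophage markers rose in that comparison too, and their part in these 2 values was not tested. Of 13 TGF-beta signalling genes, 5 had a higher and 1 a lower response in ko, against 21.8% and 23.6% of all genes. With CL in ko, 3 of the 13 rose and 1 fell, against 27.2% and 27.5% of all genes. Tgfb1, a ligand gene of this list, rose with CL in ko by 1.65 ± 0.13 (adjusted p = 2.97e-07), with a difference of responses of 1.88 ± 0.18 (adjusted p = 4.59e-06). The receptor gene Tgfbr1 rose by 1.12 ± 0.11 (adjusted p = 2.64e-06). The part of macrophages in the values of Tgfb1 and Tgfbr1 was not tested, nor was a part of these genes in the collagen values. Tgfb3 fell with CL in wt, at -0.88 ± 0.08 (adjusted p = 6.56e-06).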

How the data were processed

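Counts per gene were made by the authors with STAR and HTSeq on GRCm38, per the submitters' processing notes. No version or annotation is stated there, and the deposited counts are reverse-stranded per their file labels. Summary lines for unassigned reads, 12.5% to 17.2% of counted reads, were left out. Of 53379 identifiers, 53274 matched GENCODE M21 and 105 did not, and all 34 members matched and passed the filter on low counts.

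Counts were analysed in R 4.3.3 with edgeR 4.0.16: filterByExpr with a minimum count of 10 (16554 genes kept), TMM scaling, 1 mean per group over 12 libraries, 8 residual degrees of freedom, and the quasi-likelihood test with Benjamini-Hochberg adjustment at 0.05 (common biological coefficient of variation 11.5%). SE was computed as |log2 fold change| divided by the root of the F statistic. DESeq2 1.42.0 was an alternative. Groups came from the titles. Within groups, libraries differed by a chi-square per degree of freedom of 7.44 to 60.3, so none repeats another. The gene test was run on simulated counts in which few genes changed, in wt CL alone and evenly up and down. That setting cannot check the scaling where many genes change, as in the CL comparisons here. HTSeq leaves out reads shared between overlapping genes of 1 strand. The members and lists were chosen with earlier results of these data known. Described in full were members called in the difference of responses, with the largest change of their family, or the highest per length in it. Of other matrix lists, at most the 2 genes with the smallest adjusted p per list and comparison were named.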

Additional observations from a re-analysis of the deposited data

Results flagged for a closer look

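The response to CL differed between the genotypes, by the test of the difference itself, for 22 of the 34 members, against 45.4% of all genes. Each value here is the log2 response in ko minus that in wt, so a positive value can also be a fall in wt without a called change in ko. It was 2.22 for Col1a1, 1.85 for Col1a2, 1.48 for Col3a1, 1.02 for Col5a2 and 0.70 for Col5a1 among the fibrillar collagens. Among the fibril-associated collagens it was 1.83 for Col14a1, 1.04 for Col16a1 and 0.64 for Col12a1, the last of which was lost when any of 7 libraries was left out. The collagen VI chains were at 1.20 (Col6a1), 0.98 (Col6a3) and 0.97 (Col6a2). Fibronectin and the elastic fibre genes were at 1.59 (Fn1), 1.35 (Fbn1) and 0.91 (Eln).

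Thbs2 was at 1.68 and Postn at 1.40, while Tnc, at -1.57, had the lower response in ko. Bgn was at 1.28, Loxl1 at 1.21 and Loxl2 at 0.60. In the basement membrane family, Col18a1 was at 0.96 and Lama4 at -0.50. In the difference of responses, 21.8% of all genes were called higher and 23.6% lower. All 14 macrophage markers were called higher, as were 7 of 12 fibroblast and progenitor markers and 5 of 10 mesothelial markers, with none lower. Called lower were 9 of 10 endothelial, 7 of 12 adipocyte and 4 of 9 smooth muscle and pericyte markers, with none higher. The part of these cell types in the values of the members was not tested.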

How the results depend on the processing

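Settings varied were the library scaling, the filter on low counts, the tool (DESeq2), the libraries in the fit, a block for the replicate number, and the libraries left out 1 at a time. No value called with TMM and edgeR changed sign under any of them. For ko against wt under saline, the count of 0 members called higher became 8 with library size alone, 1 with DESeq2, 1 with only the groups compared, and 0 to 2 when a library was left out, where the 2 appeared without ko saline 1. The 5 called lower became 3 to 5 when a library was left out. With library size alone, the members called lower became 1 of 3 for ko against wt under CL and 1 of 2 for the difference of responses. The other counts stayed within 1.5 times their value, and when a library was left out they ran, higher and lower, 11 to 16 and 6 to 9 for CL in ko, 1 and 15 to 20 for CL in wt, 19 to 20 and 3 to 4 for ko against wt under CL, and 19 to 21 and 2 to 3 for the difference. Calls that held in every such fit numbered 17 of 22 for CL in ko, 16 of 23 for CL in wt, 22 of 22 for ko against wt under CL, 3 of 5 under saline and 21 of 22 for the difference.

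The titles share replicate numbers 1 to 3 between groups, but no source says that a number marks a shared animal, litter or day. Correlations of same-numbered libraries, as deviations from their group means, were -0.134 to 0.127, so the numbers were not taken to pair the samples. With a replicate block, 15 members were called higher and 7 lower for CL in ko, 1 and 20 for CL in wt, 19 and 3 for ko against wt under CL, 0 and 5 under saline, and 21 and 2 for the difference.

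With library size alone, 26 uncalled values changed sign, given here on the log2 scale. For CL in wt they were Col5a3 (-0.23), Col4a1 (-0.091), Col4a2 (-0.21), Lamb1 (-0.29), Lama4 (-0.21) and Postn (-0.16). For ko against wt under saline they were Col1a1 (0.10), Col5a2 (0.13), Col14a1 (0.064), Col6a1 (0.0047), Col6a2 (0.11), Col6a3 (0.12), Col15a1 (0.049), Lamb1 (0.16), Fbn1 (0.12) and Fmod (0.12). For ko against wt under CL they were Col8a1 (0.29), Col4a1 (0.16), Col4a2 (0.28), Nid1 (0.30), Thbs1 (0.29) and Fmod (0.26). For the difference of responses they were Col8a1 (0.091), Nid1 (0.077), Sparc (0.00694) and Fmod (0.14). Among other sign changes of uncalled values, Lamb1 for CL in wt became -0.015 with no filter, Lamb1 for CL in wt became -0.00117 with only the groups compared, Col4a1 for ko against wt under saline became -0.00113 with no filter, Col4a1 for ko against wt under saline became -0.00373 with the replicate block, Lamb1 for ko against wt under saline became 0.00386 with RLE size factors, Lamb1 for ko against wt under saline became 0.00235 with DESeq2 and Lamb1 for ko against wt under saline became 0.00188 with only the groups compared. Leaving out 1 library at a time also turned uncalled values, which then ranged as follows. In CL in wt the ranges were Col5a3 -0.00325 to 0.13, Lamb1 -0.017 to 0.054 and P4ha1 -0.11 to 0.019. In CL in ko the ranges were Col12a1 -0.15 to 0.073, Col16a1 -0.31 to 0.010, Col4a1 -0.12 to 0.049 and Col18a1 -0.16 to 0.021. In ko against wt under saline the ranges were Col1a1 -0.28 to 0.14, Col1a2 -0.18 to 0.18, Col3a1 -0.024 to 0.30, Col5a2 -0.083 to 0.075, Col6a2 -0.12 to 0.097, Col6a3 -0.079 to 0.015, Col8a1 -0.025 to 0.087, Col4a1 -0.055 to 0.092, Lamb1 -0.018 to 0.013, Fbn1 -0.12 to 0.088, Eln -0.070 to 0.15, Bgn -0.016 to 0.12, Fmod -0.20 to 0.058 and Lox -0.011 to 0.057. In ko against wt under CL the ranges were Col12a1 -0.037 to 0.19 and Sparc -0.00619 to 0.077. In the difference of responses the ranges were Fmod -0.22 to 0.072 and Lox -0.010 to 0.13. Values not called with TMM and edgeR that passed in another fit than library size alone were Col3a1, Col6a3, Col8a1 and Sparc for CL in wt, Col4a2 and P4ha1 for CL in ko, Sparc, Tnc and P4ha1 for ko against wt under saline, and Col4a2 and Thbs1 for the difference, leaving aside fits without 1 library. Depth adds to the error of the lowest members, since Col16a1, the member with the fewest counts, had 91 in its lowest library, a counting error of 10.5%, beside a common biological coefficient of variation of 11.5%.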
